A study of Mus musculus with 48 samples.

Results

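A set of 10 genes that mark hippocampal interneurons was followed in the hippocampus of 48 CD-1 mice: the peptide precursors Sst, Npy, Vip and Cck, the calcium-binding protein gene Pvalb, the GABA-synthesis genes Gad1 and Gad2, and the transcription factor genes Lhx6, Dlx1 and Dlx2. They were chosen by name, as genes of interneuron identity and signalling, with earlier results of these data known. All 10 were found among 57126 gene identifiers of the count table. Each of the 10 passed the filter on low counts that left 16360 genes for testing, and no library had 0 counts of any of them. The lowest count was 22, of Dlx2, and the highest was 12310, of Cck.

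CD-1 is an outbred stock, and the animals were sampled at 2 months of age. Their dams drank water with lead (Pb, 100 ppm), with manganese (Mn, 2 g/L), with both metals (Pb+Mn), or with neither (control), from 2 weeks before mating to weaning at postnatal day 21, 8 weeks in all. Males and females were kept apart in the design, which gave 8 groups of 6 animals. The exposed water was given to the dams, the labels do not say which animals were littermates, and pups of a single litter are not independent, so the errors given here are between animals. Going by its title, the study asked about social processing in males after early manganese as opposed to lead given with it, and the comparisons of each metal, of the combination and of the sexes follow from that.

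As background, GABA-releasing interneurons are a minority of hippocampal neurons and set the timing and strength of pyramidal cell firing. Dlx1 and Dlx2 are homeobox factors of the embryonic ganglionic eminences where these cells arise, and Lhx6 is a LIM-homeobox factor kept by cells of the medial eminence, which include most somatostatin and parvalbumin interneurons. Gad1 and Gad2 encode the glutamate decarboxylases GAD67 and GAD65, which make GABA, while somatostatin, neuropeptide Y, vasoactive intestinal peptide and cholecystokinin are co-released peptides. Parvalbumin buffers calcium in fast-spiking basket and axo-axonic cells. Cholecystokinin is also made in pyramidal cells, so Cck is the least specific of the 10.

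Total counts ranged from 6.27 to 27.6 M (M, mega) per library, with a median of 15.1 M. A transcript length trend was computed for each library as the slope of its gene levels, centred over libraries, on log2 transcript length over 11765 genes, and a low value means relatively fewer counts on long transcripts. It ran from -0.322 in male Pb animal 6 to 0.125 in a female Pb animal. Next to the lowest were female Pb animal 2 at -0.28 and female control animal 1 at -0.241. The libraries of male Pb animal 6 and female Pb animal 2 also held the most counts on 10 cytosolic ribosomal protein genes, whose summed level reached 4290 CPM (counts per M of library total) in male Pb and 4460 CPM in female Pb against at most 2130 CPM in the male controls and 2120 CPM in the female controls. Several results that rest on male Pb animal 6 or female Pb animal 2 are given with and without them.

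The 4 peptide genes are shown by the 120 bases before their RefSeq start (build GRCm38.p6, each on its own strand). As measured, the pairs Sst with Vip and Npy with Cck were among the 3 pairs of members that moved most closely together from animal to animal. With the length trend removed, Sst with Vip (Pearson r 0.61) and Npy with Cck (0.60) ranked below other pairs, among them Gad1 with Lhx6 (0.64). Capitals mark TGACG, or its complement CGTCA, the core letters of the cAMP response element that the factor CREB binds, and both strands were searched.
Sst: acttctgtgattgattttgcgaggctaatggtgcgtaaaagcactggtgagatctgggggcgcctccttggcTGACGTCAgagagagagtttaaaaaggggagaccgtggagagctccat
Vip: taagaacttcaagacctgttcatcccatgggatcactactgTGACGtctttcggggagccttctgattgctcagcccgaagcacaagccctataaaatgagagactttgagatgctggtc
Cck: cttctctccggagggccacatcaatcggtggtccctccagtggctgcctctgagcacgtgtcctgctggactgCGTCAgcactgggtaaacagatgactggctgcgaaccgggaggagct
Npy: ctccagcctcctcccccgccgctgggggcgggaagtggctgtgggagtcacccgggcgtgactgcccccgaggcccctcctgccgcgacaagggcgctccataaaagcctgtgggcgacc

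These windows lie at chr16:23890845-23890964 (minus strand) for Sst, chr10:5639098-5639217 (plus) for Vip, chr9:121495695-121495814 (minus) for Cck and chr6:49822590-49822709 (plus) for Npy. Sst held the full palindrome TGACGTCA, in which the core on each strand overlaps the other, starting 48 bases before the start. Vip held the core at -79 and Cck at -47, and these letters were not in the Npy window. Of 32851 such windows of RefSeq starts, 11.7% held the core and 1.24% held the palindrome. In the longer windows from 250 bases before to 50 after each start, 5 of the 13 windows of the members had the core (1 each of Sst, Vip, Cck, Gad2 and Dlx2), against 20.8% of all windows. The longer windows of Dlx2, Dlx1 and Npy held 29, 27 and 24 CpG pairs and that of Vip held 4, against a median of 7 over all windows. The 2 windows of Pvalb held 5 and 25. A match is a description of the letters and was not a measure of binding.

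The CPM of single genes used library totals scaled by TMM normalization factors, whereas the summed levels of marker lists used plain totals. Levels between genes were compared per kilobase of exon (CPM per kb). Cck was the highest at 222 ± 47.1 CPM per kb (SD, n = 48), followed by Sst at 135 ± 41.2, Npy at 55.4 ± 15.4, Pvalb at 33.7 ± 10.8 and Gad1 at 25.6 ± 4.17 CPM per kb. The rest were Gad2 at 16.4 ± 3.1, Vip at 5.13 ± 2.35, Lhx6 at 2.55 ± 0.45, Dlx1 at 1.41 ± 0.218 and Dlx2 at 1.28 ± 0.341 CPM per kb. Of the 4 peptide precursors, 3 headed the order and Vip came after Pvalb and both GABA-synthesis genes, and the transcription factors closed it. Within single libraries, Cck exceeded Sst, Sst exceeded Npy, Gad1 exceeded Gad2, Vip exceeded Lhx6 and Lhx6 exceeded Dlx1 in 48 of 48. Npy exceeded Pvalb in 44 and Gad2 exceeded Vip in 46 of 48. The neighbours Pvalb and Gad1 (35 of 48) and Dlx1 and Dlx2 (34 of 48) were not separated beyond their spread. Vip varied most, 7.88-fold between its lowest and highest library, with a coefficient of variation within groups of 46.9%, against 16.2% for Dlx1 and 16.4% for Gad1.

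**Figure D1:**
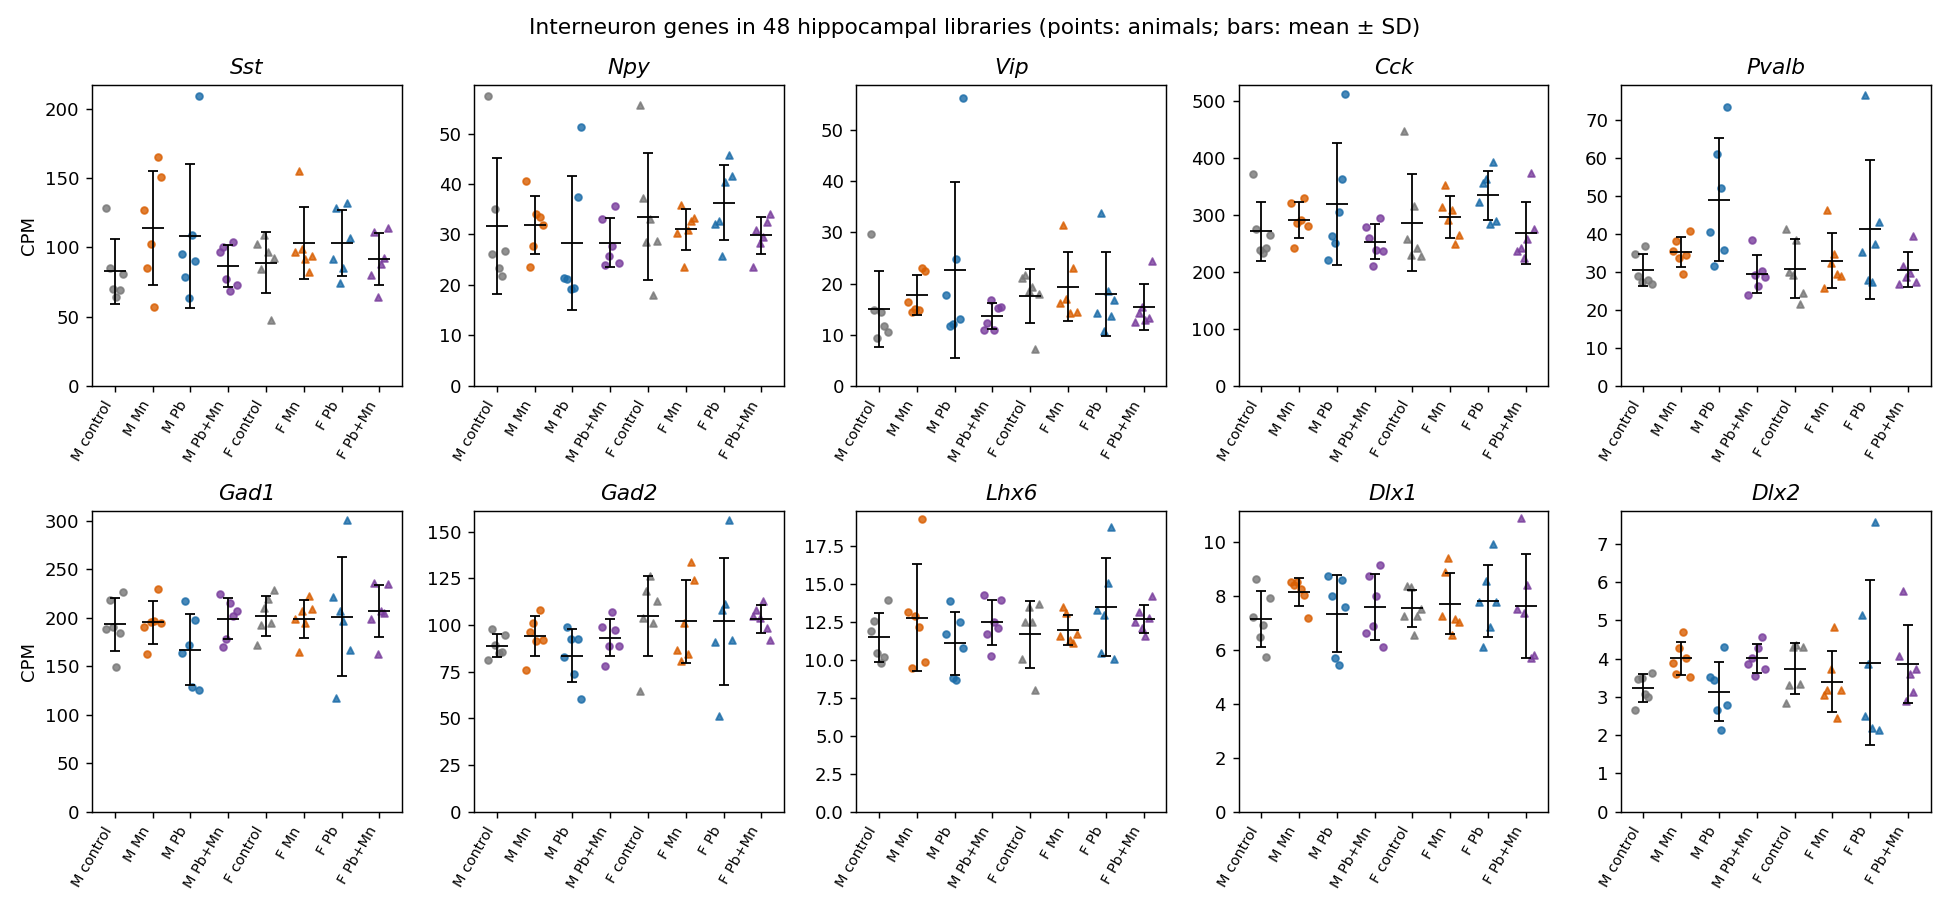
Level of each of the 10 genes in CPM (vertical axes, from 0) in every animal, for males (M, circles) and females (F, triangles) in 4 exposure groups, with black bars for the mean ± SD of 6 animals. Single animals stand high in several panels, among them male Pb animal 6 for Sst (209 CPM) and Vip (56.3 CPM) and female Pb animal 2 for Pvalb (76.6 CPM).

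No member passed the threshold (adjusted p below 0.05, edgeR quasi-likelihood test with Benjamini-Hochberg adjustment over all genes tested) in any of 19 comparisons. This was also the rule over all genes: the share called was 0% in 18 comparisons and 0.0917% in the comparison of the sexes. The shares with an unadjusted p under 0.05 serve as the background for the members below. The member values are therefore estimates with errors, and a p that misses the threshold does not show that the groups are alike.

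Of the transcription factor genes, Dlx2 had the smallest p in Mn males and in Pb+Mn males. Dlx2 in males averaged 3.23 ± 0.364 CPM in controls, 4.01 ± 0.438 in Mn, 3.14 ± 0.767 in Pb and 4.01 ± 0.374 in Pb+Mn (SD, n = 6 each). Its lowest, median and highest values were 2.67, 3.28 and 3.63 CPM in male controls, 3.53, 3.96 and 4.71 in male Mn and 3.56, 3.94 and 4.58 in male Pb+Mn. Thus 4 of 6 Mn males and 5 of 6 Pb+Mn males lay above the highest control, and the groups overlapped. The log2 fold change was 0.32 ± 0.21 (SE) in Mn (adjusted p 1, unadjusted 0.15) and 0.32 ± 0.21 in Pb+Mn (adjusted p 1, unadjusted 0.14). In females Dlx2 averaged 3.74 ± 0.66 CPM in controls, 3.4 ± 0.806 in Mn, 3.9 ± 2.15 in Pb and 3.86 ± 1.03 in Pb+Mn, and the log2 fold change in Mn was -0.13 ± 0.21. The difference between the sexes in the Mn effect was -0.45 ± 0.30 for Dlx2, female minus male (adjusted p 1). Dlx2 counts were low, from 22 to 135 per library, which limits their precision.

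Dlx1 averaged 7.16 ± 1.03 CPM in male controls, 8.17 ± 0.519 in Mn, 7.34 ± 1.43 in Pb and 7.6 ± 1.22 in Pb+Mn. All 6 Mn males were above the control mean but none above the highest control, and the log2 fold change was 0.20 ± 0.14 (adjusted p 1). In females its 4 group means lay between 7.55 and 7.83 CPM. An antisense gene, Dlx1as, overlaps Dlx1 exons on the opposite strand and had 1616 counts over all libraries against 5855 for Dlx1. The strand setting of the counting was not stated in the sources used here, and reads of the overlap may be shared. Lhx6 averaged 11.5 ± 1.62, 12.8 ± 3.52, 11.1 ± 2.07 and 12.5 ± 1.49 CPM in male control, Mn, Pb and Pb+Mn animals, with log2 fold changes of 0.16 ± 0.14 in Mn and 0.13 ± 0.14 in Pb+Mn (adjusted p 1 for both). The value in Mn was 0.02 without male Mn animal 5. In females it averaged 11.7 ± 2.21, 12 ± 1.01, 13.5 ± 3.22 and 12.7 ± 0.918 CPM in the same order, with a log2 fold change of 0.11 ± 0.14 in Pb+Mn (adjusted p 1).

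The GABA-synthesis genes had group means that differed, within each sex, by less than the SD of the widest group. Gad1 averaged 193 ± 27.4 CPM in male controls, 195 ± 21.7 in Mn, 167 ± 36.7 in Pb and 199 ± 21.2 in Pb+Mn, and 202 ± 20.6, 199 ± 19.5, 201 ± 61.1 and 207 ± 26.9 CPM in females. Gad2 averaged 89.0 ± 6.37, 94.0 ± 10.8, 83.6 ± 14.3 and 93.1 ± 9.96 CPM in the male groups and 105 ± 21.5, 102 ± 22.3, 102 ± 34.1 and 103 ± 7.5 CPM in the female groups. In male Mn the log2 fold change was 0.01 ± 0.14 for Gad1, with a 95% interval from -0.26 to 0.28, and 0.08 ± 0.15 for Gad2, with an interval from -0.22 to 0.38 (adjusted p 1 for both). Averaged over the 4 treatments Gad2 was 0.20 ± 0.08 higher in females on the log2 scale, the smallest p of the members in that comparison (unadjusted 0.014, adjusted 0.72), and Gad1 was 0.11 ± 0.07 higher (adjusted p 0.75). Female minus male, 1 of 10 members had an unadjusted p under 0.05, against a background of 6.77%.

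Sst, the somatostatin precursor of oriens and hilar interneurons, gave the smallest p of the members in Mn males. Its lowest, median and highest levels were 64.0, 75.2 and 128 CPM in male controls, 56.6, 115 and 165 in male Mn, 63.4, 92.5 and 209 in male Pb and 68.7, 86.8 and 104 in male Pb+Mn. Of the Mn males 5 of 6 lay above the control mean and 2 above the highest control, while 1 lay below the lowest control, so the groups overlapped. The means were 114 ± 40.9 CPM in Mn and 82.8 ± 23.4 in controls, a log2 fold change of 0.47 ± 0.23 (unadjusted p 0.048, adjusted p 1). It ranged from 0.34 to 0.64 when single libraries were left out. The unadjusted p was not under 0.05 in limma voom. Nor was it without male control animal 2, 3, 4, 5 or 6, or without male Mn animal 1, 5 or 6. In females Sst averaged 88.9 ± 21.9 CPM in controls, 103 ± 26.2 in Mn, 103 ± 23.6 in Pb and 91.6 ± 18.8 in Pb+Mn, and the log2 fold change in Mn was 0.21 ± 0.23 (adjusted p 1), from 0.05 to 0.27 with single libraries left out and lowest without female Mn animal 2. Over both sexes the Mn difference was 0.34 ± 0.16 (unadjusted p 0.043, adjusted p 1). Against Mn alone, Pb+Mn males were lower in Sst by a log2 fold change of -0.40 ± 0.23 (adjusted p 0.95).

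Markers of a neighbouring tissue were inversely related to Sst and to several other members. The summed level of 10 thalamus and habenula genes, none of which was at 0 in every library, ran from 175 to 1280 CPM (median 486) in male controls and from 179 to 717 CPM (median 201) in male Mn. Over the 48 libraries, as deviations from group means, Sst and this sum had a Pearson r of -0.48. Lhx6 had -0.54 with it, Npy -0.53, Vip -0.44, Cck -0.41 and Dlx1 -0.4. The remaining members ran from -0.19 (Dlx2) to 0.18 (Gad2). The part of the dissection in the Sst difference was not tested. In bulk RNA, fewer cells of a type and less RNA per cell cannot be told apart, for Sst and for every other member.

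Npy, which is made by several interneuron types including many somatostatin cells, averaged 31.7 ± 13.4, 31.9 ± 5.8, 28.3 ± 13.2 and 28.4 ± 4.82 CPM in male control, Mn, Pb and Pb+Mn animals. In females it averaged 33.5 ± 12.6, 31.0 ± 4.14, 36.3 ± 7.49 and 29.8 ± 3.68 CPM in that order. In male Mn its log2 fold change was 0.01 ± 0.22, with an interval from -0.42 to 0.44, the smallest of the 10 in size. In female Pb+Mn it was -0.17 ± 0.22 (adjusted p 1), and it turned to 0.02 without female control animal 1. Male controls ran from 21.7 to 57.5 CPM and female controls from 18.0 to 55.7 CPM, each with a single high animal, and that spread exceeded the differences between group means.

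Vip, the peptide of interneurons that mainly contact other interneurons, averaged 15.1 ± 7.46 CPM in male controls, 17.8 ± 3.97 in Mn, 22.6 ± 17.2 in Pb and 13.7 ± 2.51 in Pb+Mn. Its lowest, median and highest values in male Pb were 11.8, 15.3 and 56.3 CPM, against 9.34, 13.1 and 29.7 CPM in controls. The difference rested on a single animal: the log2 fold change in male Pb was 0.59 ± 0.31 (unadjusted p 0.061, adjusted 0.45) and 0.08 without male Pb animal 6. In Mn males it was 0.23 ± 0.31 (adjusted p 1), from 0.12 to 0.54 with single libraries left out and highest without male control animal 1. In females Vip averaged 17.6 ± 5.35, 19.4 ± 6.7, 18.0 ± 8.26 and 15.4 ± 4.55 CPM in control, Mn, Pb and Pb+Mn animals. The sex difference in the Pb effect was -0.57 ± 0.43 (adjusted p 1), and -0.06 without male Pb animal 6, but -0.87 without male control animal 1 or without female Pb animal 2.

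Cck averaged 271 ± 51.6 CPM in male controls, 291 ± 31.6 in Mn, 319 ± 107 in Pb and 253 ± 31.0 in Pb+Mn, with a log2 fold change of 0.11 ± 0.16 in Mn (adjusted p 1). In females it averaged 286 ± 85.0, 296 ± 36.8, 334 ± 43.5 and 268 ± 54.4 CPM, and the log2 fold change in Pb was 0.22 ± 0.16 (adjusted p 1), from 0.17 to 0.40 with single libraries left out. Over both sexes the Pb difference was 0.23 ± 0.11 (unadjusted p 0.045, adjusted 0.44). It was 0.13 without male Pb animal 6 and female Pb animal 2, and from 0.14 to 0.32 with single libraries left out.

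Pvalb stood apart from controls in Pb animals by the smallest p of any member in a comparison with controls. In male controls its lowest, median and highest levels were 26.9, 28.5 and 36.9 CPM, in male Mn 29.4, 35.2 and 40.9, in male Pb 31.6, 46.4 and 73.5 and in male Pb+Mn 24.1, 28.9 and 38.5 CPM. All 6 Pb males were above the control mean and 4 above the highest control, and the groups overlapped. The means were 49.1 ± 16.2 CPM in Pb and 30.5 ± 4.27 in controls, a log2 fold change of 0.69 ± 0.19 (unadjusted p 0.00078, adjusted 0.4). In females the lowest, median and highest levels were 21.7, 29.6 and 41.4 CPM in controls and 27.4, 36.3 and 76.6 in Pb, with means of 30.9 ± 7.74 and 41.3 ± 18.3 CPM. The female log2 fold change was 0.41 ± 0.19 (unadjusted p 0.036, adjusted 1), and 0.14 without female Pb animal 2, its highest value. Female Mn and Pb+Mn animals averaged 33.0 ± 7.27 and 30.6 ± 4.64 CPM. In Mn males the log2 fold change was 0.22 ± 0.19 (adjusted p 1).

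Over both sexes the Pvalb difference in Pb was 0.55 ± 0.14 (unadjusted p 0.00018, adjusted 0.32). It was 0.34 without male Pb animal 6 and female Pb animal 2, and 0.38 with the length trend of each library as a covariate. In males alone it was 0.55 without the pair and 0.41 with the covariate. The length trend ran from -0.322 to 0.047 in male Pb against -0.093 to 0.073 in male controls. Of 10 ribosomal protein genes 9 had an unadjusted p under 0.05 and were higher in male Pb (summed level 1460 to 4290 CPM, against 1370 to 2130 CPM), and of 10 dentate granule cell genes 6 had one and were lower (354 to 568 CPM, against 431 to 845 CPM). The share of all genes with such a p in male Pb was 11.5%. None of these genes passed the adjusted threshold or was at 0 in every library. Their part in the Pvalb difference was not tested beyond the covariate.

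**Figure D2:**
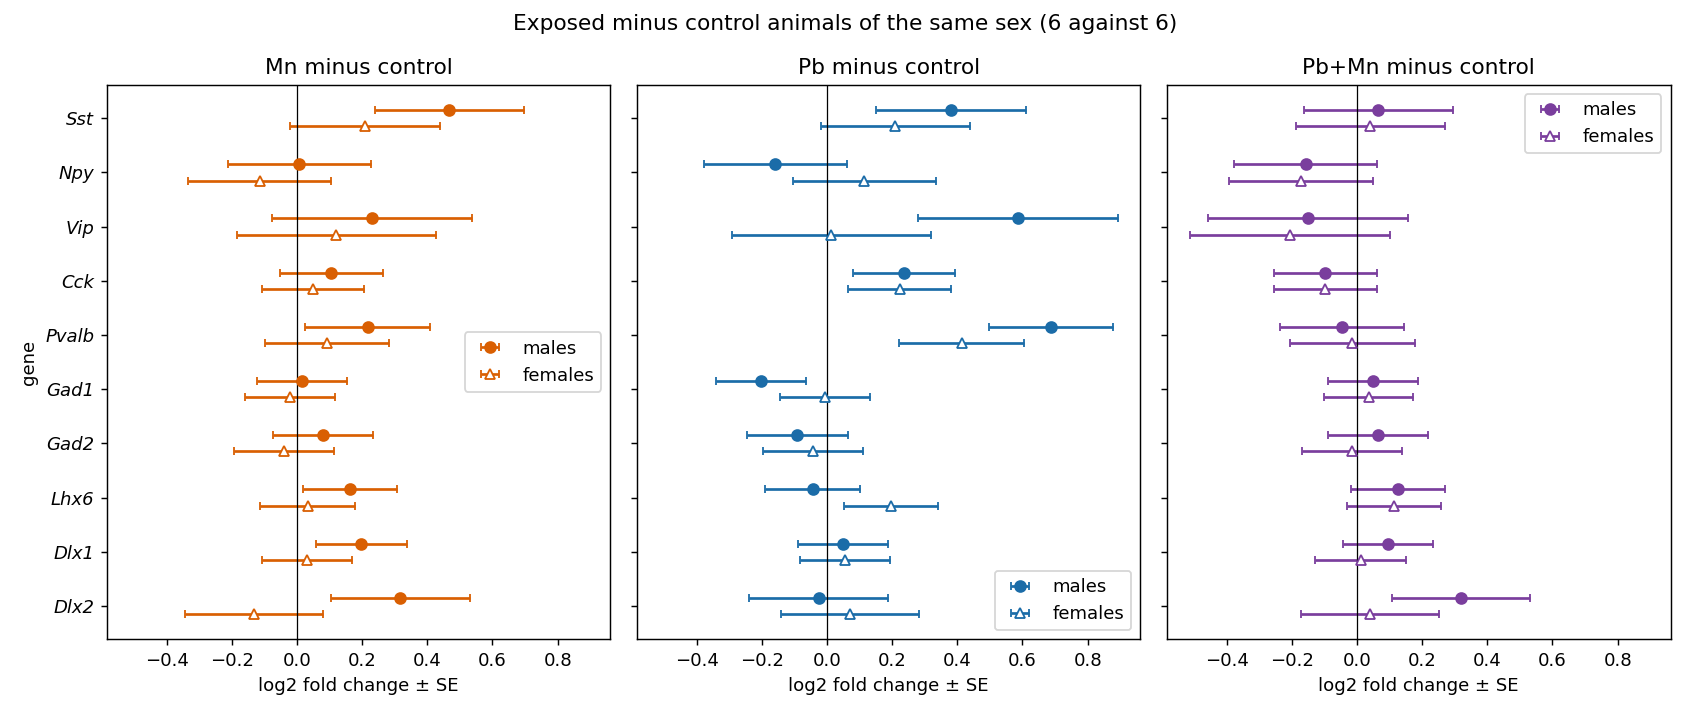
Log2 fold change ± SE (horizontal axes) of the 10 genes in exposed minus control animals of the same sex, 6 against 6, for Mn, Pb and Pb+Mn, with filled circles for males and open triangles for females. All 10 points of Mn males lie at or above 0 (0.01 to 0.47), and Pvalb in Pb has the largest value in each sex (0.69 and 0.41).

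Read over the whole set, all 10 members had a positive log2 fold change in Mn males, with a median of 0.18 against -0.01 over all genes, and 1 of 10 had an unadjusted p under 0.05 against 1.92% of all genes. The signs of Npy (0.01) and Gad1 (0.01) there turned when some single libraries were left out. In Mn females 6 were positive and 4 negative (median 0.03), none had an unadjusted p under 0.05, and the background was 2.59%. The members are correlated with each other across animals, so their shared sign is not 10 separate observations. The Mn effect, female minus male, was negative for all 10 members, from -0.45 to -0.04, with a median difference of -0.12 against 0.01 over all genes, but none had an unadjusted p under 0.05 (background 0.844%). The smallest p there were those of Dlx2, given above, and Dlx1 (-0.17 ± 0.20). Over both sexes, 1 of 10 had one in Mn (background 4.3%), 2 of 10 in Pb (11.1%) and 0 of 10 in Pb+Mn (4.06%). Over both sexes the next smallest p after Sst in Mn was that of Dlx1 (0.11 ± 0.10), and the smallest p in Pb+Mn were those of Dlx2 (0.18 ± 0.15) and Lhx6 (0.12 ± 0.10) in Pb+Mn. In males, 1 of 10 had one in Pb (11.5%) and 0 of 10 in Pb+Mn (2.24%). In females, 1 of 10 had one in Pb (2.25%) and 0 of 10 in Pb+Mn (1.46%). The member medians in Pb were 0.01 in males and 0.09 in females, and in Pb+Mn 0.06 in males and 0.00 in females.

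The combination was set beside each metal. Against Pb alone, Pb+Mn males were lower in Pvalb by a log2 fold change of -0.73 ± 0.19 (unadjusted p 0.00036, adjusted 0.11), in Vip by -0.74 ± 0.31 (adjusted 0.16) and in Cck by -0.33 ± 0.16 (adjusted 0.2). These 3 of 10 members with an unadjusted p under 0.05 stand against a background of 22.3%, so their share was near that of all genes. Pvalb passed the adjusted threshold in DESeq2 (adjusted p 0.045) and when male Pb animal 2 or animal 5 was left out (0.036 and 0.031), but not otherwise. Those fits called 326, 1047 and 1129 genes in all, where the main test called 0, so a call of 1 member went with calls of many genes. With the length trend as covariate the Pvalb value was -0.36 (adjusted 0.78). Without male Pb animal 6, Vip was at -0.23 and Cck at -0.15, and Pvalb ran from -0.86 to -0.59 with single libraries left out. In females the same comparison gave -0.43 ± 0.19 for Pvalb and -0.32 ± 0.16 for Cck (adjusted 0.96 for both, 2 of 10 with an unadjusted p under 0.05, background 3.71%), and Pvalb was at -0.16 without female Pb animal 2. Against Mn alone, no member had an unadjusted p under 0.05 in males (background 3.81%) or in females (2.38%). The lowest p there belonged to Sst (above) and Pvalb, -0.26 ± 0.19, in males, and to Vip, -0.33 ± 0.31, and Cck, -0.15 ± 0.16, in females. The female Vip value moved to -0.14 without female Mn animal 2 and to -0.50 without female Pb+Mn animal 6.

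The interaction of the metals, the Pb+Mn effect beyond the sum of both single effects, was negative in males for Pvalb (-0.95 ± 0.27, unadjusted p 0.00098), Vip (-0.97 ± 0.43, 0.031) and Sst (-0.78 ± 0.32, 0.02), each with an adjusted p of 0.37 against a background of 13.1%. Without male Pb animal 6 the value was -0.46 for Vip and -0.49 for Sst, and that of Pvalb ran from -1.08 to -0.81 with single libraries left out. In females Pvalb had -0.52 ± 0.27 and Cck -0.37 ± 0.22 (adjusted 0.99 for both, background 3.17%), and Pvalb was at -0.25 without female Pb animal 2. The sex by Pb interaction (background 1.89%) had a value of 0.24 ± 0.20 for Lhx6, and the sex by Pb+Mn interaction (background 0.568%) had -0.28 ± 0.30 for Dlx2 and -0.08 ± 0.20 for Dlx1, with no member at an unadjusted p under 0.05 in either. These comparisons share control and exposed animals and are not separate evidence.

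Many pairs of members were correlated from animal to animal within groups. Over 48 libraries, with log2 levels taken as deviations from the group mean, 24 of 45 pairs had an adjusted p under 0.05 (two-sided permutation test with 100000 permutations, adjusted over the 45 pairs), 18 positive and 6 negative. The share of such pairs over all genes was not computed, so the count does not mark the members out. Genes outside the set, picked as the highest of 12207, reached an r of up to 0.93 (Gad2 with Mkln1). The highest correlations were Gad1 with Gad2 (Pearson r 0.76, Spearman rho 0.69), Sst with Vip (0.73 and 0.62), Npy with Cck (0.70 and 0.54), Gad1 with Lhx6 (0.66 and 0.67) and Gad1 with Dlx2 (0.64 and 0.58). For each of these r the permutation p was 1e-05, the smallest that the permutations can give, and the adjusted p 6.4e-05. The permutation p of rho was at most 0.00016. Without the 2 animals farthest from the median the r were 0.61, 0.70, 0.58, 0.60 and 0.51. The lowest were Pvalb with Gad1 (r -0.63, rho -0.52, adjusted permutation p 0.0001), Pvalb with Gad2 (-0.60, -0.47, 0.00013) and Vip with Gad2 (-0.47, -0.38, 0.0037), and -0.47, -0.41 and -0.41 without the farthest animals. In this form the peptides and Pvalb made up a block of positive pairs, the GABA-synthesis and transcription factor genes another, and Pvalb and Vip were low where Gad1 and Gad2 were high.

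The sign of the relation to the length trend separated the same blocks. Gad2 (5876 bases of exon) had an r of 0.89 with the length trend of the library and Gad1 (7639 bases) 0.72, whereas Pvalb (1041 bases) had -0.80, Vip -0.65, Cck (1305 bases) -0.60, Sst (721 bases) -0.52 and Npy (566 bases) -0.44 (Spearman rho 0.83, 0.62, -0.73, -0.51, -0.47, -0.45 and -0.27, permutation p of r at most 0.0023, adjusted over 140 relations at most 0.011). For Npy the permutation p of rho was 0.064. Members with under 2000 bases of exon had negative r and those with over 4000 positive r, but the size of r did not follow the order of lengths, and Vip (3402 bases) and Dlx2 (2855 bases) differed in sign. Lhx6, Dlx2 and Dlx1 had r of 0.35, 0.35 and 0.27 (adjusted permutation p 0.048, 0.047 and 0.12), and 0.26, 0.24 and 0.20 without the 2 farthest libraries. For the other 7 members the r without these libraries were between -0.73 and 0.82. The summed ribosomal protein genes had an r of 0.80 with Pvalb, -0.83 with Gad2 and -0.82 with Gad1, and the summed dentate granule cell genes -0.81, 0.63 and 0.72 (adjusted permutation p 0.00014 for each).

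**Figure D3:**
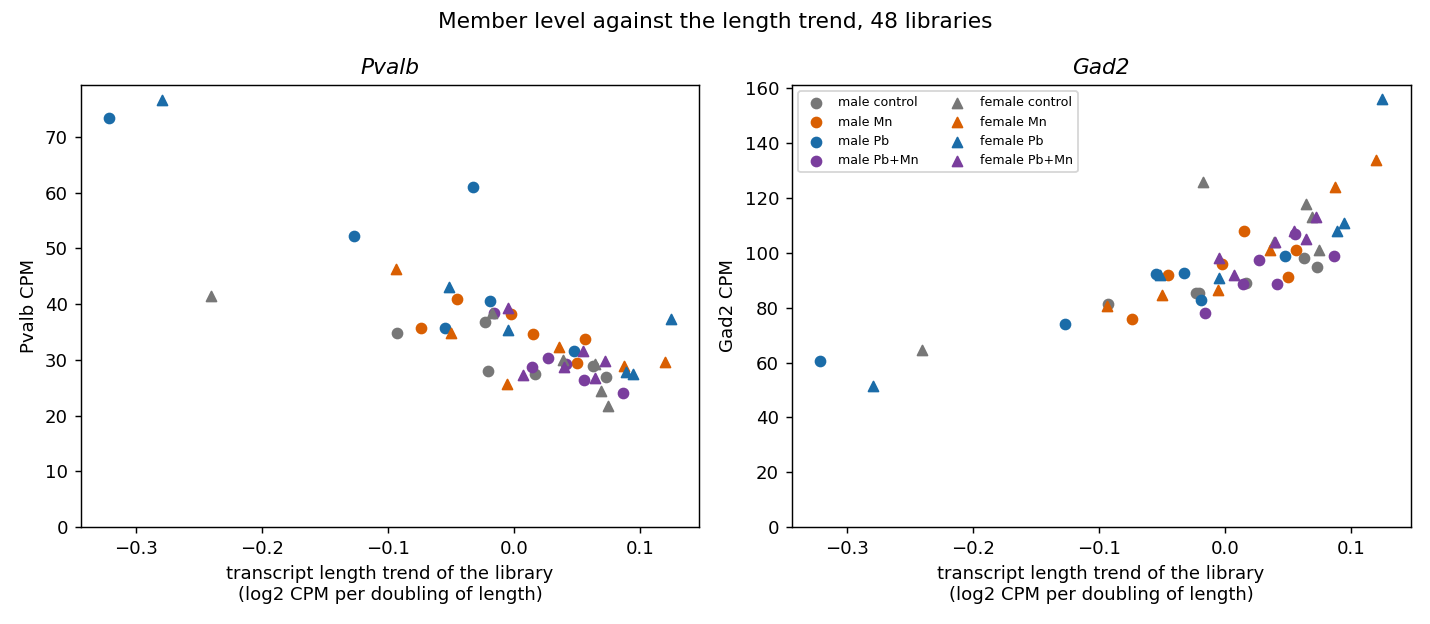
Pvalb (left) and Gad2 (right) level in CPM (vertical axes, from 0) against the transcript length trend of the library (horizontal axes), 1 point per animal with colour for exposure and shape for sex. Pvalb is highest (73.5 and 76.6 CPM) and Gad2 lowest (60.6 and 51.5 CPM) in male Pb animal 6 and female Pb animal 2, the libraries of lowest length trend.

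After linear removal of the length trend, a step added after the data were seen, no negative pair passed the threshold, although 5 pairs still had a negative r (the lowest -0.16, Vip with Dlx2). Again 24 of 45 pairs had an adjusted permutation p under 0.05, now 24 positive and 0 negative. The share over all gene pairs was not computed here either. The r of Pvalb with Gad2 turned from -0.60 to 0.42 (adjusted permutation p 0.0082), Vip with Gad2 from -0.47 to 0.33 (0.041), and Pvalb with Gad1 went to -0.14 (0.44). Of the pairs of Pvalb with the peptides, those with Vip (0.62 to 0.21), Sst (0.52 to 0.20) and Cck (0.44 to -0.08) lost their call, as did Vip with Cck (0.44 to 0.08). Of the 5 highest pairs all kept their sign, with 0.40 for Gad1 and Gad2, 0.61 for Sst and Vip, 0.60 for Npy and Cck, 0.64 for Gad1 and Lhx6 and 0.59 for Gad1 and Dlx2. Of the markers of the medial eminence lineage, Sst with Lhx6 went from 0.33 to 0.64 and Pvalb with Lhx6 from -0.31 to -0.06 (adjusted permutation p 0.72), and Gad1 with Sst went from -0.09 to 0.49, pairs chosen here after their values were seen. Pvalb had r between -0.14 and 0.42 with the other 9 members.

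**Figure D4:**
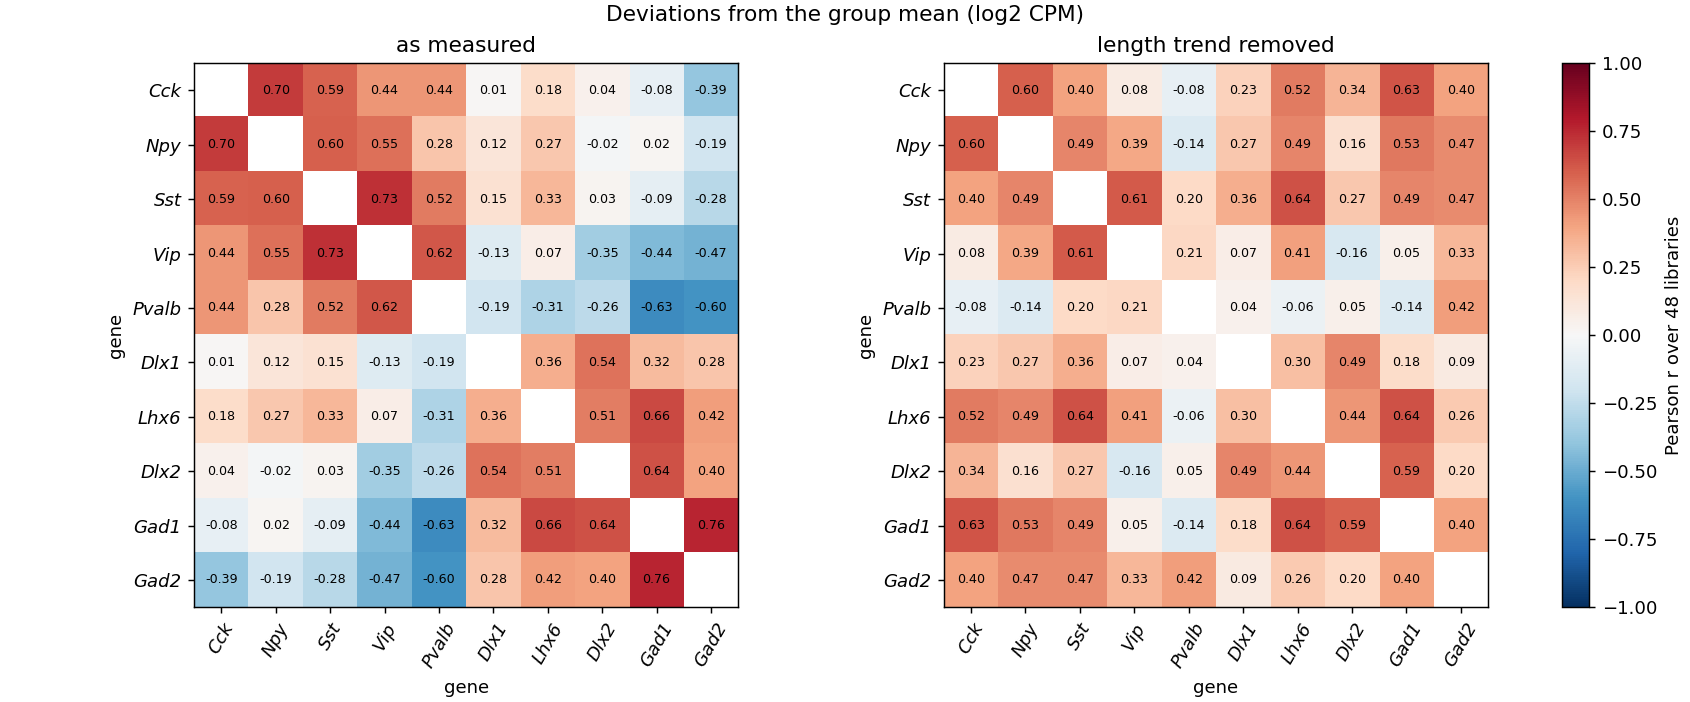
Pearson r of each pair of the 10 genes over 48 libraries (colour scale from -1 to 1, values printed in the cells), for log2 levels as deviations from the group mean (left) and with the length trend of the library removed as well (right). The block of negative values between Vip or Pvalb and Gad1 or Gad2 at left (-0.44 to -0.63) becomes -0.14 to 0.42 at right.

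Among 12207 genes at or above a mean log2 CPM of 1, the nearest to each member over the 48 libraries were as follows, by Pearson r of deviations from group means. Sst was most like Crhbp (r 0.80, rho 0.74), which encodes a corticotropin-releasing hormone binding protein, then Ykt6 and Arpc1a (0.78 each). Npy was nearest to Rprml (0.82), Ldha (0.81) and Twf2 (0.80), Vip to Yrdc, Ensa (0.89 each) and Dcun1d5 (0.87), and Cck to Gabarapl1 (0.89), Atp6v0d1 (0.84) and Lcmt1 (0.83). For Pvalb they were Fndc4 (0.88), Arl3 (0.87) and Pfdn1 (0.86), for Gad1 Jak1 (0.90), Pja2 and Syt1 (0.89 each), and for Gad2 Mkln1 (0.93), Selenoi and Slc24a2 (0.92 each). The factor genes were nearest to Dkk3 (0.82), Elmod1 (0.78) and Cdk17 (0.77) for Lhx6, Tmem132d (0.64), Ankrd63 and Dnah9 (0.61 each) for Dlx1, and Galnt16 (0.74), Matn2 (0.73) and Tmem43 (0.72) for Dlx2. These r share library depth and the length trend and carry no test, since the genes were picked as the highest of all.

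Other genes of GABA handling, of interneurons and of peptide signalling were read from lists chosen with earlier results of these data known. None of them passed the adjusted threshold in any exposure comparison. The cells that express them were not resolved in this bulk RNA. Of 8 genes of GABA synthesis and transport, 0 had an unadjusted p under 0.05 in any of the 6 exposure comparisons within a sex. The smallest p were those of the transporter gene Slc6a13 in male Pb (-0.74 ± 0.40) and of Gphn, the inhibitory synapse scaffold gephyrin, in male Pb (-0.16 ± 0.09). Among 9 tested factor genes of the medial eminence lineage, the list median was 0.11 in Mn males and 0.19 in Pb+Mn males. Satb1 had a log2 fold change of 0.29 ± 0.13 in female Pb (adjusted p 1). Among 9 genes of caudal eminence interneurons, Htr3a, a serotonin receptor subunit, had -0.58 ± 0.24 in female Pb and Adarb2 -0.49 ± 0.22 in male Pb. Named after their values were seen, Sp8 (0.52 ± 0.24) and Npas1 (0.28 ± 0.14) went the other way in female Pb at an unadjusted p under 0.05, where 3 of the 9 were positive and 6 negative, and in male Pb 5 were positive and 4 negative. Of 8 basket and axo-axonic cell genes, Cox6a2 (-0.93 ± 0.53) and Tac1 (-0.56 ± 0.33) had the smallest p, both in Pb+Mn males, and 0 of 8 had an unadjusted p under 0.05 in any of the 6 comparisons with controls within a sex, where the shares over all genes were 1.46% to 11.5%.

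Crhbp, listed with oriens and hilar interneuron genes and the gene most like Sst, averaged 16.2 ± 6.74 CPM in Mn males and 9.49 ± 4.14 in controls. Its log2 fold change was 0.77 ± 0.28 (unadjusted p 0.008, adjusted p 1), with 6 of 6 above the control mean. The list of 8 did not share a sign in Mn males, with 4 positive and 4 negative members and a median of -0.01. In female Pb it again had 4 positive and 4 negative members, with Pnoc at -0.41 ± 0.17 and Crhbp at 0.61 ± 0.28. The female value of Crhbp was added after it was seen. Of 7 neurogliaform cell genes, Ndnf had 0.40 ± 0.18 in female Mn and Lamp5 0.36 ± 0.17 in female Pb. In the peptide lists, Tac2 (-1.49 ± 0.60, female Mn) and Adcyap1 (-0.81 ± 0.39, male Pb+Mn) had the smallest p among 11 other neuropeptides. Tac2 is also a habenula gene, and in female controls its SD exceeded its mean of 8.41 CPM. Among 11 tested peptide receptor genes, Sstr4, a somatostatin receptor, averaged 23.2 ± 6.9 CPM in female Pb and 15.9 ± 2.72 in controls (0.55 ± 0.18, adjusted p 1). Npy1r, an NPY receptor, averaged 19.6 ± 2.88 CPM in male Pb and 25.9 ± 4.27 in controls (-0.40 ± 0.14, adjusted p 0.4), with 6 of 6 below the control mean. Also at an unadjusted p under 0.05, and named after their values were seen, were Npy5r (-0.47 ± 0.18) and Cckbr (0.48 ± 0.22) in male Pb, Vipr1 (0.30 ± 0.14) in female Mn and Sstr3 (0.31 ± 0.15) in male Pb+Mn. Of 8 peptide processing genes, Pam had -0.23 ± 0.09 and Cpe 0.18 ± 0.08, both in male Pb.

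Markers of other cells and tissues were present in all groups, with no listed gene at 0 in every library. The 10 pyramidal neuron genes summed to between 8910 and 15000 CPM and the 10 dentate granule cell genes to between 354 and 864 CPM per library. Choroid plexus genes varied most, from 49.6 to 6680 CPM, and meninges genes ran from 34.5 to 191 CPM, striatum and septum genes from 68.2 to 118 CPM and neocortex genes from 99.0 to 210 CPM. Striatal and septal tissue also holds interneurons that express Sst, Npy and Gad1, and Sst had an r of -0.47 with the striatum and septum sum, Npy -0.07 and Gad1 -0.18. With the neocortex sum Pvalb had an r of 0.42 and Vip 0.03, and the other members ran from -0.46 (Lhx6) to -0.01 (Sst). With the summed oligodendrocyte genes Pvalb had 0.5 and Vip 0.13, and the others ran from -0.66 (Gad1) to -0.04 (Sst). The part of neighbouring tissue in the members' levels was not tested further.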

How the data were processed

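The authors deposited whole-number read counts per gene, not normalized, in a single table with all 48 libraries. Per the submitters' processing notes, reads were handled with STAR 2.7.10b, Trim Galore 0.6.9 and featureCounts 2.0.6 on build GRCm39, and limma, edgeR and R 4.4.2 are also named. Strand and multi-mapping settings are not given in the sources used here. Identifiers were matched to symbols (51884 of 57126). Groups are those of sex and treatment in the labels. The test was edgeR 4.0.16 in R 4.3.3 (quasi-likelihood F test, two-sided, TMM, filterByExpr, 1 term per group, all libraries, Benjamini-Hochberg over 16360 genes, threshold 0.05). SE is the log2 fold change over the root of F, and a prior count of 2 was used for log2 CPM. The length trend used genes at or above a mean log2 CPM of 2. The test was checked on simulated data. DESeq2 1.42.0 and limma 3.58.1 were alternatives. The members and lists were chosen with earlier results of these data known. Named were all members in Mn males, elsewhere those with an unadjusted p under 0.05 or the 2 of smallest p, and the 2 genes of smallest p of each other list, of which those of the interneuron and peptide lists are given, except some that are not reported here. Promoters are from RefSeq (GRCm38.p6) and all 10 members matched. No library repeated another of its own group (lowest chi-square per degree of freedom 6.2). Libraries of different groups were not compared in this way. For exons, the union of annotated exons gave the lengths.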

Additional observations from a re-analysis of the deposited data

Results flagged for a closer look

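Of 80 tests of a highest or lowest animal against the rest of its group of 6, 14 stood apart. These were 10 members in 8 groups, with a gap over range above Dixon's 95% critical value. The nominal rate of about 1 in 20 assumes normal values and independent tests, but the members are correlated and several flags came from the same animals. The share of such flags over all genes was not computed, so the count does not mark the members out. Male control animal 1 was the highest of its group in Sst (128 CPM), Npy (57.5), Vip (29.7) and Cck (371 CPM). Male Pb animal 6 stood high in Sst (209 CPM) and Vip (56.3 CPM), and female Pb animal 2 in Vip (33.9 CPM) and Pvalb (76.6 CPM). In the other groups the high values were Sst in female Mn animal 2 (155 CPM), Vip in female Pb+Mn animal 6 (24.5 CPM), Cck in female Pb+Mn animal 5 (373 CPM) and Lhx6 in male Mn animal 5 (19.3 CPM). The low values were Vip in female control animal 5 (7.14 CPM) and Dlx1 in male Mn animal 6 (7.18 CPM). Peptide genes and Pvalb gave 12 of the 14, and Gad1, Gad2 and Dlx2 gave 0, which is a description and not a test. The length trend was -0.322 in male Pb animal 6, -0.28 in female Pb animal 2 and -0.0931 in male control animal 1, and its part in these values was not tested.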

How the results depend on the processing

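The number of members called was 0 in 516 of 519 alternatives over the 19 comparisons. The exceptions were Pb+Mn males against Pb males, with 1 member called (Pvalb) in DESeq2 and from 0 to 1 when single libraries were left out. The fits without male Pb animal 2 or animal 5, which called it, called 1047 and 1129 genes in all. Of 1252 alternatives to 48 named fold changes, 1237 kept the direction and the side of the threshold and 12 reversed, in Npy and Gad1 in Mn males (main values 0.01) and Npy in Pb+Mn females (-0.17). Npy in Mn males was -0.00017 without the filter on low counts and between -0.079 and 0.27 with single libraries left out. Gad1 in Mn males was between -0.049 and 0.065, and Npy in Pb+Mn females between -0.29 and 0.024, with single libraries left out, and the latter was 0.023 without the 4 libraries that stand apart (animal 1 of each control group, male Pb animal 6 and female Pb animal 2), an alternative chosen after seeing the data. With the length trend removed, r turned to 0.42 for Pvalb with Gad2 and 0.33 for Vip with Gad2, and lost its call for Pvalb with Gad1 at -0.14. All 80 group levels moved by less than 1 SD with plain totals. Same-numbered animals of different groups had a median r of 0.03 (51 of 168 pairs over 0.1), against -0.01 for other numbers (213 of 840 pairs over 0.1). These values are pooled over all groups, so they cannot exclude a pairing between particular groups. With a replicate block, no member was called in any comparison, Pvalb in male Pb was at 0.69 (adjusted p 0.41) and Sst in male Mn at 0.46 (adjusted p 1). The number of genes with an unadjusted p under 0.05 in male Pb was 1886, and 2993 without the filter and 934 with the length trend as covariate. In Pb+Mn males against Pb males, 326 genes were called in DESeq2 and 0 in the main test. Dlx2 and Dlx1 had the lowest counts of the members, from 22 and 48 per library.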
